A study of Rattus norvegicus with 2 samples.

Results

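The Sectm1 and Cbln1 fibroblasts are 941 of the 14078 cells that were profiled from the cartilage of Lewis rats by single-cell RNA sequencing, 613 of 8622 cells in the arthritis library and 328 of 5456 in the control library. The arthritis library came from Lewis rats with collagen-induced arthritis (CIA), which were immunised with type II collagen together with complete Freund's adjuvant and collected on day 14. The control library came from Lewis rats with no treatment, which the series' design text calls sham. There was 1 library per condition, the sources used here do not give the number of rats or the joint sampled, and the tissue was labelled cartilage throughout. They do not give the sex or age of the rats either.

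Cells were chosen by their own RNA. UMIs (unique molecular identifiers) count captured RNA molecules, and CPM is the UMI count of a gene when all UMIs of a cell, or of a sum of cells, are scaled to 1000000. A cell belonged when Dcn, Lum, Col1a1 and Col3a1, matrix genes of fibroblasts, together reached 20000 CPM, Prg4 was under 5000 CPM, Col2a1 under 1000 CPM and Lyz2 under 10000 CPM, and the cycle genes Top2a, Cdk1, Cenpf and Ube2c summed to under 5 UMIs. Of 2019 CIA and 1750 control cells that met these limits (the fibroblast gate), members had at least 3 UMIs of Sectm1a, Sectm1b and Cbln1 together, more of these than of Mfap2, Egfl6 and Prss35, and under 5 UMIs of Aqp3, Fam180a and Fam25a. The levels of these 20 genes chose the cells and are given as description. The members held a median of 10803 UMIs per cell in CIA and 14036 in control, and 7115964 and 5120579 UMIs in all. Among them, 6 CIA and 2 control cells carried 1 of the 52 barcodes that occurred in both libraries.

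The synovium that borders joint cartilage has a thin lining of fibroblasts that secrete lubricin, the product of Prg4, over a sublining of matrix-rich fibroblasts, many of which carry Thy1 in mouse and human. Sectm1 proteins are small secreted or membrane proteins of the immunoglobulin superfamily, which in human and mouse bind Cd7 on T cells and natural killer cells. Cbln1 is a secreted protein of the C1q family, known for joining neurexins and glutamate delta receptors at cerebellar synapses. Lcn2 binds bacterial iron carriers, Cxcl6 is a neutrophil-attracting chemokine, and Sfrp4 is a secreted Wnt antagonist.

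Rat carries a pair of Sectm1 genes, neighbours on chromosome 10 in RefSeq, and their RNAs could be miscounted between each other if reads were shared, which the deposited counts do not show. Their promoter windows (RefSeq, build GRCr8, 250 bases before to 50 after each start, minus strand) are shown because this pair defines the gate. They lie at chr10:106832055-106832354 for Sectm1b and chr10:106846885-106847184 for Sectm1a. Capitals mark Ets core letters, TTCCTG, and 1 STAT-like motif, TTCNNNGAA, searched on both strands.
Sectm1b: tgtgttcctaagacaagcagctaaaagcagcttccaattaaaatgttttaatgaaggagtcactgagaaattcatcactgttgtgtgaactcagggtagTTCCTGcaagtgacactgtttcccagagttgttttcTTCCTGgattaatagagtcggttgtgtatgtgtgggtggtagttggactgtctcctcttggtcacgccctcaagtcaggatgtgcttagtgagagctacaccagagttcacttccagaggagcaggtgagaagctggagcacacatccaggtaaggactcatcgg
Sectm1a: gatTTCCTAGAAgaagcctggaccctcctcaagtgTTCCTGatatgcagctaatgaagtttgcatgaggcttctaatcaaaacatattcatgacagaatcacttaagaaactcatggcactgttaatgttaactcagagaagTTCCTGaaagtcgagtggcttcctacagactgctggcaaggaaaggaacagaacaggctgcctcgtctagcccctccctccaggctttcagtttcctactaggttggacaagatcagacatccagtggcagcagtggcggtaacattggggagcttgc
In a global alignment, 192 of 246 aligned bases were identical (78%). TTCCTG occurred in 29.1% and TTCNNNGAA in 8.87% of the 33469 windows in the table. Neither window held the AP-1 letters TGANTCA, which 7.33% of windows held, or the C/EBP letters TTGCNNAA, which 10.6% held. Of the 6 markers, 4 had a window in the table, and Cbln1 and Sfrp4 are named only.

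Of the 3 genes of the marker clause, Sectm1b was seen in most cells. Summed over the cells, Sectm1b had 2507 CPM (2470 to 2544) in CIA members and 2232 CPM (2191 to 2273) in control members, where ranges are exact Poisson 95% intervals that cover counting error only. Sectm1a had 210 CPM (200 to 221) in CIA and 207 CPM (195 to 220) in control members. Cbln1 had 188 CPM (178 to 199) in CIA and 149 CPM (139 to 160) in control members. The per-cell sum of these 3 genes ran from 3 to 393 UMIs with a median of 18 in CIA members, and from 3 to 266 with a median of 21 in control members. To compare cells of unlike depth, each cell was thinned to 4000 UMIs. Sectm1b was then seen in 88.3% (85.4 to 90.7) of CIA and 86% (81.7 to 89.5) of control members, where intervals of shares are exact binomial. In the endothelial gate, cells that should lack the gene, 10.2% of CIA and 4.69% of control cells had a Sectm1b UMI at the same depth. Unthinned, 96.2% of CIA and 95.1% of control members had one, with median depths of 8983 and 11695 UMIs in the endothelial gate.

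Sectm1a and Cbln1 were each seen in less than 1 of 2 members at 4000 UMIs. Sectm1a was seen in 40.3% of CIA and 44.8% of control members, and in 0.576% and 1.06% of endothelial-gate cells. Cbln1 was seen in 41.3% of CIA and 40.2% of control members, and in 0.768% and 0.303% of endothelial-gate cells. All 3 genes were seen together in 15.8% (13 to 19) of CIA and 15.5% (11.8 to 19.9) of control members, and Sectm1b alone in 33.3% and 31.4%. Cbln1 alone was seen in 2.28% of CIA and 3.35% of control members. Across the thinned member cells, Sectm1b and Sectm1a had a Spearman rho of -0.02 over 613 CIA cells and 0.03 over 328 control cells, a description only, since the cells of a library share their preparation and depth. Sectm1b and Lcn2 had a rho of 0.27 in CIA and 0.13 in control cells.

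The other 3 markers were not used by the rule. They belong to the marker list of these cells, so their levels are description and not separate support. Lcn2 had 3416 CPM in CIA and 2868 CPM in control members, against 784 and 1106 CPM in the other cells of the fibroblast gate. Sfrp4 had 1696 CPM in CIA and 1554 CPM in control members, against 646 and 722 CPM in those other cells. Cxcl6 had 1151 CPM in CIA and 735 CPM in control members, against 539 and 482 CPM. Only Lcn2 and Sfrp4 of these 3 passed the size rule used throughout, a gap of 2-fold or more with all of its exact conditional 95% interval past 1.5-fold, in both libraries. Cxcl6 was 2.14-fold (2.07 to 2.2) higher in CIA and 1.52-fold (1.47 to 1.58) higher in control. The 10% of member cells with most UMIs of it held 60.1% of the Cxcl6 UMIs in CIA and 71.3% in control, so the summed level rested on a minority of cells.

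**Figure D1:**
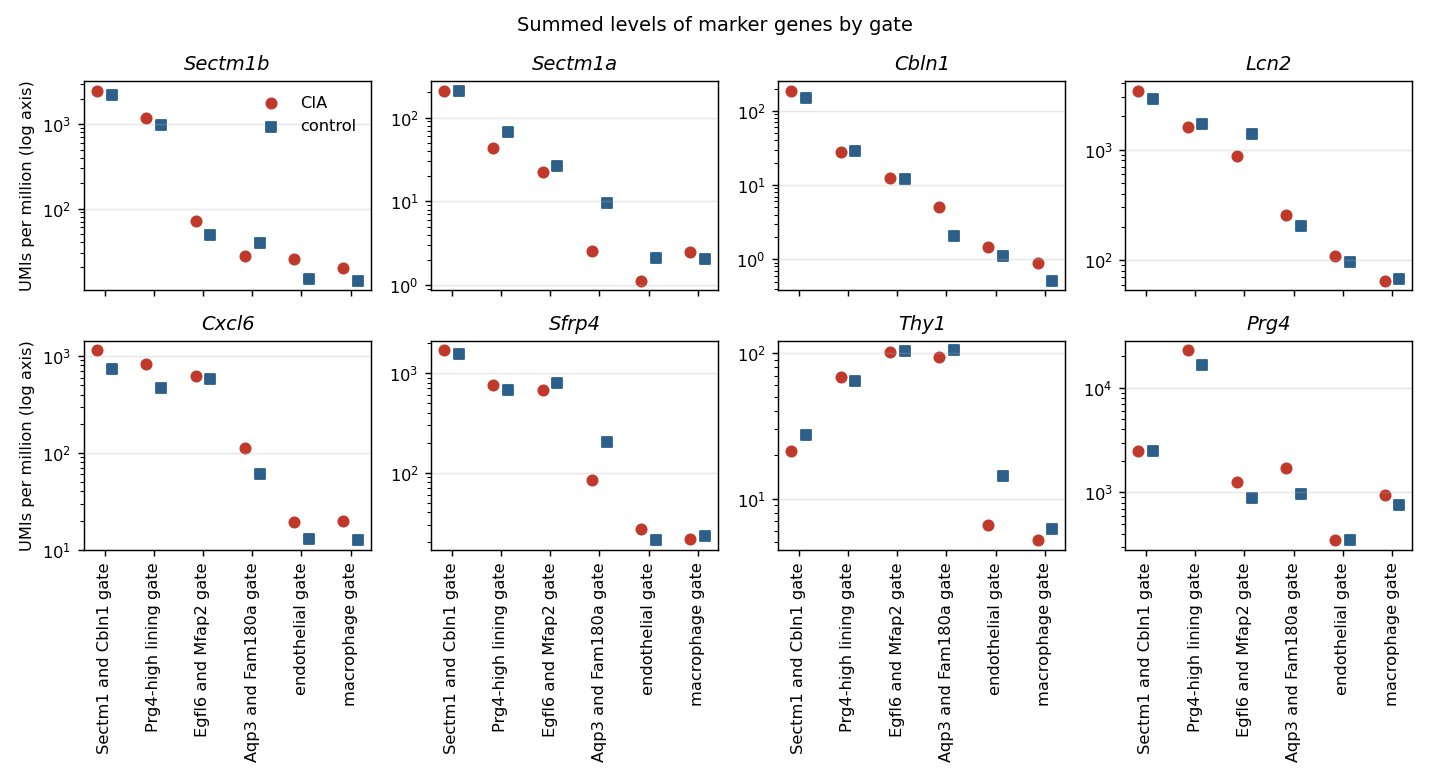
Summed levels in CPM (log axis) of the 6 markers, Thy1 and Prg4 in the Sectm1 and Cbln1 gate and 5 other gates, with CIA (circles) left of control (squares), 1 library each. Sectm1b reached 2507 and 2232 CPM in the gate and 1188 and 975 CPM in the lining gate, while Thy1 was at 21.1 and 27.5 CPM in the gate and above 60 CPM in the other fibroblast gates.

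The working name of these cells includes the word sublining, and its markers gave a mixed picture. Thy1, a glycoprotein of the cell surface and the usual mark of sublining fibroblasts, was low. Thy1 had 21.1 CPM in CIA and 27.5 CPM in control members, seen in 15.5% and 25.9% of cells. It had 102 and 104 CPM in the Egfl6 and Mfap2 matrix gate, 68.8 and 64.9 CPM in the Prg4-high lining gate and 6.61 and 14.4 CPM in the endothelial gate. Of 14 measured sublining and adventitial genes, Clec3b and Sfrp4 were higher in members than in the other fibroblasts in both libraries, and Thy1 and Smoc2 were lower. Against the lining gate, 6 of 14 were higher, namely Clec3b, Sfrp1, Sfrp2, Sfrp4, Col14a1 and Cxcl12, and Thy1 was lower. Sfrp4, counted in both comparisons, is 1 of the 6 markers of these cells. Of all measured genes, 0.869% were higher and 1.70% lower than in the other fibroblasts, and 1.01% and 1.17% than in the lining gate. Over the other fibroblasts, the median of the sublining and adventitial list was -0.09 on the log2 scale in CIA and -0.32 in control, against -0.12 and -0.10 over all 8627 measured genes. Pdgfra, a receptor that most fibroblasts carry, had 208 CPM in CIA and 171 CPM in control members and 203 and 187 CPM in the matrix gate. Prg4, which the rule limits, was still seen in all members, at a median of 2387 CPM per CIA cell and 2426 CPM per control cell. Its median was 715 and 400 CPM in the matrix gate and 316 and 207 CPM in the endothelial gate. In the thinned cells, Prg4 was seen in 99% of CIA and 96.3% of control members. It was seen in 87.6% and 78.8% of matrix-gate cells and in 72.6% and 60.4% of endothelial-gate cells. The part of RNA from other cells in the member values of Prg4 was not tested. With Thy1 low and the Prg4 median above that of the matrix gate, the cells are called Sectm1 and Cbln1 fibroblasts below.

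**Figure D2:**
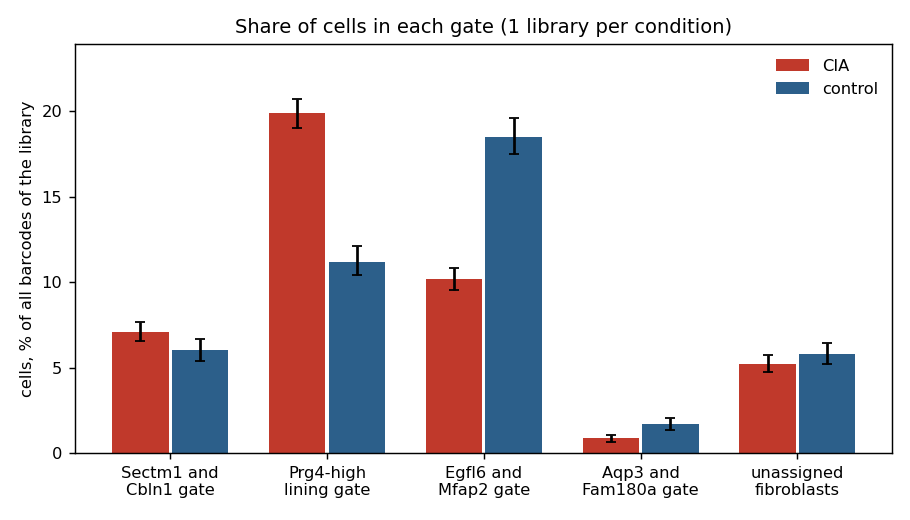
Share of all barcodes of a library (percent) in the Sectm1 and Cbln1 gate and in the other fibroblast and lining gates, CIA left of control. Bars give 1 library each and whiskers the exact binomial 95% interval, and unassigned fibroblasts are the fibroblast-gate cells in none of the other gates shown. The Sectm1 and Cbln1 gate held 7.11% and 6.01% of cells, the lining gate 19.9% and 11.2%, and the matrix gate 10.2% and 18.5%.

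Members made up 7.11% (6.58 to 7.67) of CIA cells and 6.01% (5.4 to 6.68) of control cells, close together beside the gap in the lining and matrix gates. As a share of the fibroblast gate they were 30.4% (28.4 to 32.4) of 2019 CIA cells and 18.7% (16.9 to 20.7) of 1750 control cells. Each share moves with the other gates and with how the tissue was taken, and no replicate exists, so the comparison is of these libraries, not of the conditions. The limit on Lyz2, a macrophage gene, touches it: summed Lyz2 was 1285 CPM in CIA and 692 CPM in control members, and with a limit of 1000 CPM in place of 10000, 1.97% of CIA and 5.43% of control cells were left, which turns the order round. In the endothelial gate Lyz2 was 1500 CPM in CIA and 835 CPM in control. The part of RNA from macrophages in these values was not tested.

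Cells that met the Sectm1 and Cbln1 clause lay on both sides of the Prg4 limit. Igf1 was higher just inside the marker limit than just outside it in both libraries, over few cells. Levels here are sums over bands of cells, so whether the members form a separate group was not tested. In the lining gate, which has Prg4 of at least 5000 CPM and otherwise the same first limits, 763 of 1712 CIA cells and 296 of 611 control cells also met the Sectm1 and Cbln1 clause. Just inside the Prg4 limit, at 4000 to 5000 CPM, were 96 CIA and 58 control cells, with Sectm1b at 2759 and 3100 CPM, and just outside it, at 5000 to 6000 CPM, 69 and 34 cells, with Sectm1b at 2154 and 2063 CPM. At the marker limit, 34 CIA and 18 control cells had 3 marker UMIs, just inside, and 55 and 22 cells had 2, just outside. Those with 3 UMIs had Sfrp4 at 1551 and 697 CPM, and those with 2 had 1243 and 929 CPM. The growth factor gene Igf1 was at 2529 and 1656 CPM with 3 UMIs, and at 1210 and 940 CPM with 2.

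Over all cells that met the clause, levels of several genes stepped down with Prg4, while Sectm1b showed no steady fall. Sectm1b had 2301 CPM in CIA and 1845 CPM in control cells with Prg4 under 2500 CPM, and 2549 and 1933 CPM in cells with Prg4 over 10000 CPM. Igf1, an insulin-like growth factor, had 3193 CPM in CIA and 2181 CPM in control cells of the lowest Prg4 band, then 1760 and 1371 CPM, 1053 and 864 CPM, and 279 and 341 CPM in the highest. Ccl7, a monocyte-attracting chemokine, had 1748 and 1091 CPM in the lowest band and 228 and 407 CPM in the highest. Clic5, a chloride channel protein found in the lining, had 0.266 and 3.02 CPM in the lowest band and 30.2 and 6.83 CPM in the highest. Within the members alone, Igf1 and Prg4 had a rho of -0.31 in CIA and -0.32 in control cells.

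**Figure D3:**
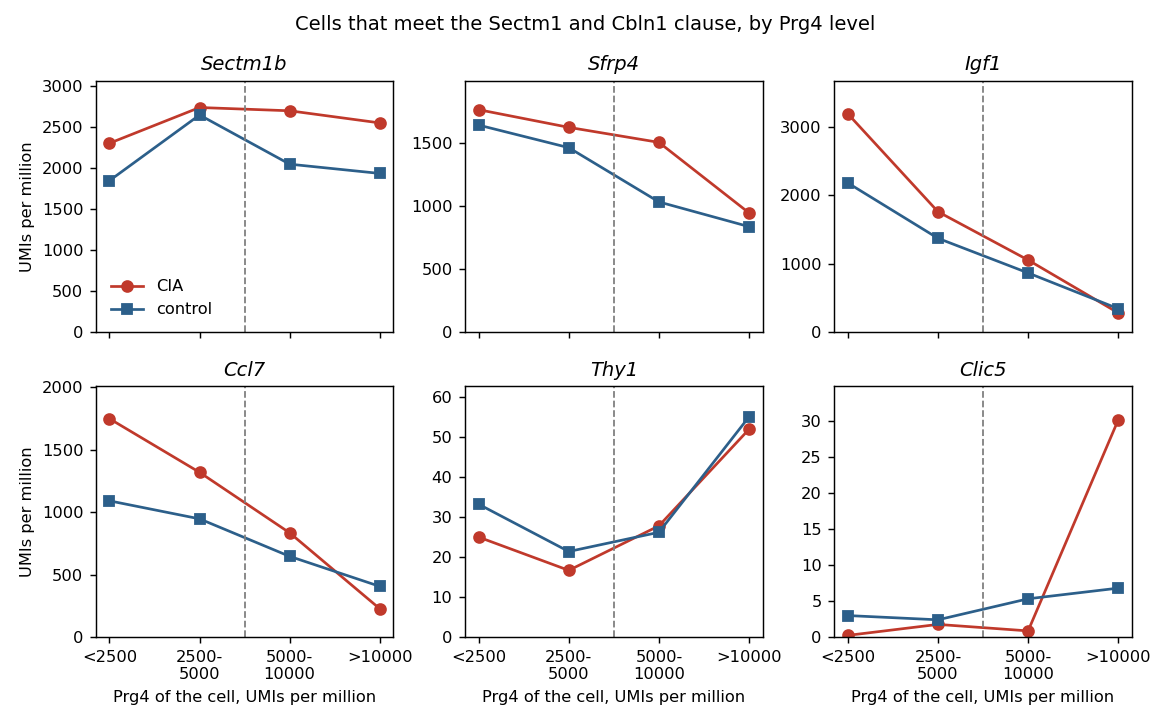
Summed levels of 6 genes in CPM against the Prg4 level of the cell in 4 bands, for all cells that meet the Sectm1 and Cbln1 clause, CIA (circles) and control (squares). The dashed line is the gate's limit of 5000 CPM: Igf1 and Ccl7 are lowest in the band over 10000 CPM, and Sectm1b stays between 1845 and 2737 CPM.

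Set against the other 1406 CIA and 1422 control cells of the fibroblast gate, 75 of 8627 measured genes (0.869%) were higher and 147 (1.70%) lower in members in both libraries. The cells had been chosen on these values, so the counts describe the gate and test nothing. Pla2g2a, a secreted phospholipase, had 1261 CPM in CIA and 1193 CPM in control members, against 99.8 and 177 CPM in the other fibroblasts, a ratio of 12.6 (12 to 13.4) in CIA and 6.74 (6.46 to 7.04) in control. The 10% of member cells richest in it held 77.4% of its UMIs in CIA and 78.7% in control, and 41.1% and 35.1% of members had none. Slpi, an inhibitor of leukocyte proteases, had 2442 and 2131 CPM in members, against 609 and 631 CPM. Steap4, a metalloreductase induced in inflammation, had 218 and 198 CPM in members, against 88.5 and 80.6 CPM. Of 15 measured acute-phase and antimicrobial genes, Lcn2, Slpi and Steap4 were thus higher and 0 were lower.

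Of the complement list, 5 of 15 measured genes were higher in both libraries and 0 lower, against 0.869% and 1.70% of all measured genes. C1r, a protease of the first complement complex, had 2435 CPM in CIA and 2302 CPM in control members, against 961 and 981 CPM in the other fibroblasts. Its inhibitor Serping1 had 2654 and 2526 CPM in members, against 719 and 825 CPM, a ratio of 3.69 (3.61 to 3.78) in CIA and 3.06 (2.99 to 3.14) in control. C2, C4b and Cfd, which take part in forming the C3 convertases, were the other 3, and C4b had 18.3 and 17 CPM in members against 3.9 and 5.13 CPM. C3 itself had 428 CPM in CIA and 330 CPM in control members, against 83.4 and 182 CPM, and passed in CIA at 5.14-fold but not in control at 1.81-fold. The difference between the libraries in this ratio was not tested.

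Among 12 measured CC and other chemokines, Ccl7, Ccl20 and Cx3cl1 were higher and Ccl12 was lower. Of all measured genes, 0.869% were higher and 1.70% lower. Ccl7 had 1545 CPM in CIA and 1021 CPM in control members, against 461 and 472 CPM. Cx3cl1, a ligand of the monocyte receptor Cx3cr1, had 16.3 and 11.7 CPM in members, against 2.82 and 4.12 CPM. Cxcl3, the 1 of 5 neutrophil-attracting CXC chemokines that passed, had 303 and 208 CPM in members, against 98.8 and 69.1 CPM, and the richest 10% of cells held 91.3% and 92.8% of its UMIs. Il6 had 102 and 94.3 CPM in members, against 26.1 and 42.4 CPM, and was seen in 25.8% and 25.9% of members and in 2.5% and 8.47% of endothelial-gate cells. Vcam1, an adhesion molecule that binds leukocyte integrins, had 408 CPM in CIA and 443 CPM in control members, against 105 and 119 CPM. It was spread over the cells: 12.7% of CIA and 8.84% of control members had no UMI of it. In the thinned cells, Ccl20 was seen in 10.8% of CIA and 13.7% of control members, against 16.1% and 13.3% of lining-gate cells. Cxcl3 was seen in 17.5% and 15.2% of members, against 23.4% and 15.1% of lining-gate cells. Ccl7 and Cx3cl1 were seen more often in members than in the lining gate in both libraries. Of 4 neutrophil-attracting CXC chemokines measured against the lining gate, 0 were higher in both libraries.

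Genes of other kinds were also higher in the members than in the other fibroblasts. Lrat, which esterifies retinol, had 26.4 CPM in CIA and 28.3 CPM in control members, against 4.9 and 4.85 CPM in the other fibroblasts. Calcrl, the receptor through which calcitonin gene-related peptide and adrenomedullin act, had 87.8 and 79.5 CPM in members, against 19.3 and 19 CPM. LOC299282, which the files name only by this symbol, had 429 and 417 CPM in members, against 52.1 and 37 CPM. Cyp4b1, a cytochrome P450, had 66.9 and 73 CPM in members, against 15 and 12.5 CPM. Grem1, an antagonist of bone morphogenetic proteins, had 446 and 441 CPM in members, against 109 and 156 CPM. The proprotein convertase Pcsk5, Tmem176a, Tmem176b, Tusc5, Nabp1 and Vegfd, a lymphatic growth factor, together with Pla2g2a, Vcam1, Lrat, Calcrl, LOC299282 and Cyp4b1 made up the 12 genes of highest ratio over the other fibroblasts once the genes of the rule were left out. In the thinned cells, Lrat was seen in 8.16% of CIA and 6.71% of control members, and in 39.2% and 34.9% of endothelial-gate cells. Tmem176a was seen in 55.5% and 61.9% of members, against 69.7% and 69.4%, and Tmem176b in 61.8% and 65.2%, against 71.4% and 72.5%. Calcrl was also seen more often in the endothelial gate, and the rest of the 12 genes less often. The part of endothelial RNA in these values was not tested. Cd7 is the lymphocyte receptor that Sectm1 binds in human and mouse. It had 16.7 CPM in CIA and 16.4 CPM in control members, against 5.98 and 3.62 CPM in the other fibroblasts. Without thinning, Cd7 was seen in 13.2% and 14.9% of member cells and in 0.96% and 0.756% of endothelial-gate cells.

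Several matrix lists had genes that were lower in the members. Of 10 measured collagens outside the fibrillar group, Col6a1, Col6a2, Col8a1, Col8a2 and Col12a1 were lower and 0 higher. Over all 8627 measured genes, 1.70% were lower and 0.869% higher. Col6a2 had 1065 CPM in CIA and 997 CPM in control members, against 2312 and 1998 CPM in the other fibroblasts. Col12a1 had 247 and 168 CPM in members, against 544 and 519 CPM. Of 22 fibrillar collagen and processing genes, Col11a1 and the cross-linking enzyme Loxl2 were lower. Col11a1 had 105 and 128 CPM in members, against 401 and 425 CPM, while Col1a1 and Col3a1 were used by the rule. The elastic-fibre genes Eln and Fbn2 were lower, Eln at 69.3 and 75 CPM in members against 162 and 181 CPM. Serpine2, an inhibitor of thrombin and plasminogen activators, had 62.3 and 55.3 CPM in members, against 405 and 347 CPM, and Lrrc15, a membrane protein of matrix-producing fibroblasts, 9.84 and 8.98 CPM against 82.8 and 77.1 CPM. Timp3, a metalloproteinase inhibitor, had 10.1 and 9.57 CPM in members, against 43.9 and 37.1 CPM. Against this, versican went the other way: Vcan had 3766 and 3148 CPM in members, against 1691 and 1563 CPM.

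**Figure D4:**
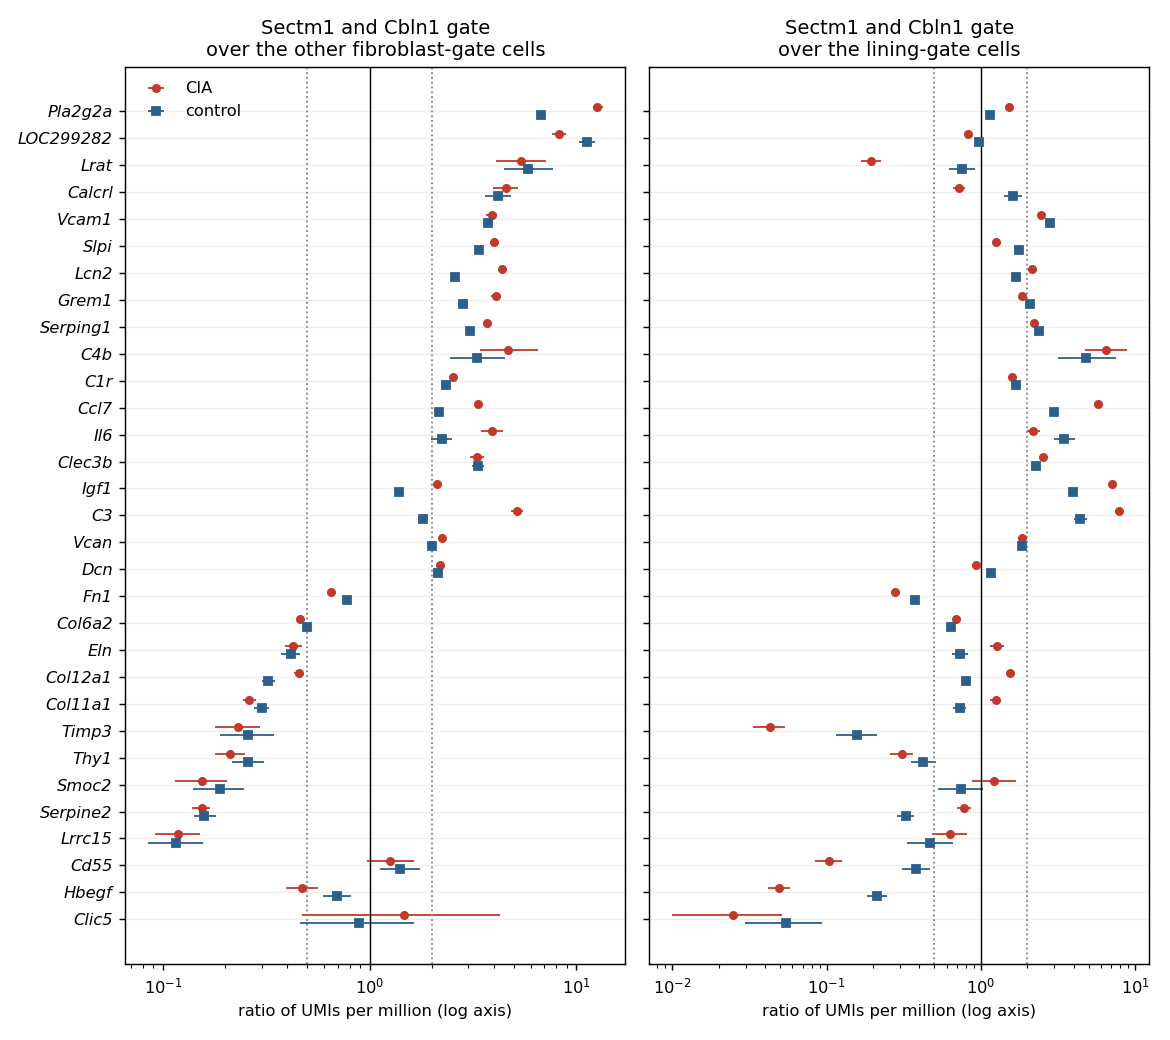
Ratio of summed CPM (log axis) in Sectm1 and Cbln1 cells over the other fibroblast-gate cells (left) and over the lining-gate cells (right), for 31 genes in CIA (circles) and control (squares), with exact conditional 95% intervals. Dotted lines mark 2-fold. Pla2g2a is 12.6 and 6.74 times the other fibroblasts but 1.52 and 1.14 times the lining gate, while Igf1 and C3 lie furthest above the lining gate and Clic5 furthest below it.

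Several of these genes were shared with the lining gate rather than with the members alone. Pla2g2a had 830 CPM in CIA and 1045 CPM in control lining-gate cells, so the members were 1.52-fold (1.48 to 1.56) and 1.14-fold (1.11 to 1.18) higher, short of the size rule. Lining-gate cells that met the Sectm1 and Cbln1 clause had Lcn2 at 2775 CPM in CIA and 2521 CPM in control. Their Cxcl6 was at 1357 and 696 CPM, and their Sfrp4 at 1124 and 919 CPM. Lining-gate cells that did not meet the clause had Lcn2 at 612 and 915 CPM, Cxcl6 at 393 and 258 CPM and Sfrp4 at 453 and 449 CPM. LOC299282 had 523 and 429 CPM in the lining gate, and Mmp3, a matrix metalloproteinase that degrades cartilage matrix, had 14204 CPM in CIA and 15737 CPM in control members, against 17751 and 14603 CPM in the lining gate and 6893 and 6202 CPM in the matrix gate. Lrat had 136 and 37.5 CPM in the lining gate, more than in the members in both libraries. Cyp4b1 had 131 and 87.6 CPM there, and at 4000 UMIs was seen in 14.4% of CIA and 16.2% of control members, against 28% and 20% of lining-gate cells. Calcrl had 122 and 49 CPM there, was seen at that depth in 25.9% and 22.3% of members, against 26.1% and 13.1% of lining-gate cells, and was seen in 60.5% and 62.6% of endothelial-gate cells. Over genes, the profile of the members had a Pearson r of 0.963 with the lining gate and 0.970 with the matrix gate in CIA, and 0.973 and 0.971 in control, against 0.692 and 0.706 with the endothelial gate. Genes are not independent and these r values are given without a test.

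Against the Egfl6 and Mfap2 matrix gate, 69 of 7977 genes were higher (0.865%) and 120 lower (1.5%) in members in both libraries. Pla2g2a was 15.5-fold (14.4 to 16.8) higher in CIA and 6.68-fold (6.37 to 7.01) higher in control members than in the matrix gate. Vcam1 was 3.92-fold and 3.47-fold higher and Lcn2 3.94-fold and 2.08-fold higher. Igf1, at 1454 and 1564 CPM in the matrix gate, was 1.73-fold higher in CIA and 1.14-fold higher in control members, short of the rule. Sfrp4 was 2.5-fold and 1.95-fold higher, and passed in CIA only.

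Compared with the lining gate, 77 of 7639 genes were higher (1.01%) and 89 lower (1.17%) in members in both libraries, Prg4 among the lower. Igf1 had 2517 CPM in CIA and 1790 CPM in control members, against 356 and 453 CPM in the lining gate, a ratio of 7.07 (6.89 to 7.26) in CIA and 3.95 (3.81 to 4.1) in control. Of 18 growth-factor genes, Igf1, its binding protein Igfbp4, Fgf7, Fgf18, Angpt1, Ptn and Mdk were higher and Hbegf was lower. C3 was 7.85-fold (7.35 to 8.39) higher in CIA and 4.42-fold (4.04 to 4.84) higher in control members than in the lining gate. Ccl7 was 5.75-fold and 3-fold higher, and the Wnt modulators Sfrp1, Sfrp2, Sfrp4 and Rspo2 were higher too, Sfrp2 at 236 and 224 CPM in members against 47.5 and 66.6 CPM. Cxcl12, a chemokine of stromal cells, had 123 and 89.8 CPM in members, against 37.6 and 41.5 CPM.

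Most lining genes were lower in the members than in the lining gate. Of 14 measured lining genes, 9 were lower in both libraries, counting Prg4, whose difference the rule had fixed, and Vcam1 and Rspo2 were higher. Over all 7639 measured genes, 1.17% were lower and 1.01% higher. Cd55, a complement-decay factor of the lining surface, had 13.9 CPM in CIA and 21.9 CPM in control members, against 135 and 57.4 CPM in the lining gate. Hbegf, a ligand of the epidermal growth factor receptor, had 21.5 and 39.6 CPM in members, against 438 and 187 CPM. Has1, a hyaluronan synthase, had 43.7 and 57.4 CPM in members, against 244 and 144 CPM. Fn1, fibronectin, had 6102 and 5366 CPM in members, against 22121 and 14285 CPM. Timp3 was at 10.1 and 9.57 CPM in members, against 237 and 60.6 CPM. Clic5 had 0.984 CPM in CIA and 2.73 CPM in control members, against 39.6 and 49.9 CPM, and Prg4, 2489 and 2495 CPM against 22951 and 16406 CPM, differed by the rule.

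Few genes passed the size rule between CIA and control members. Of 7239 measured genes, 6 were higher (0.0829%) and 49 lower (0.677%) in CIA members by the size rule, and the median log2 ratio was 0.05. The markers were near each other in both libraries, with CIA over control ratios of 1.12 (1.1 to 1.15) for Sectm1b, 1.02 (0.939 to 1.1) for Sectm1a, 1.26 (1.16 to 1.38) for Cbln1, 1.19 (1.17 to 1.22) for Lcn2 and 1.09 (1.06 to 1.12) for Sfrp4. The widest marker gap was in Cxcl6, at 1.57 (1.51 to 1.63). Several secreted products of these cells were short of the rule as well. Ccl7 had a ratio of 1.51 (1.46 to 1.56), Igf1 of 1.41 (1.37 to 1.44), C3 of 1.3 (1.22 to 1.38), Il6 of 1.08 (0.963 to 1.22), Mmp13 of 1.14 (1.11 to 1.17), Mmp3 of 0.903 (0.894 to 0.911) and Cxcl1 of 0.735 (0.699 to 0.772). Of 14 measured complement genes, 13 metalloproteinase and Timp genes, 12 interferon-response genes and 9 genes of MHC class I, 0 passed in either direction. Of 8 measured cytokines Il1b and Il33 were lower, of 10 other chemokines Ccl11 was lower, and of 15 acute-phase and antimicrobial genes Orm1 was higher and Chi3l1 lower. That a gene did not pass does not show that its level was alike.

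The genes higher in CIA members were Spp1, Pla2g2d, Dennd4c, AABR07039356.2, Ccl6 and Orm1. Spp1, osteopontin, had 188 CPM (178 to 199) in CIA and 57.8 CPM (51.4 to 64.8) in control members, seen in 82.5% and 46.6% of cells, a ratio of 3.26 (2.87 to 3.7). The endothelial gate had 189 and 61 CPM of Spp1, seen in 81.8% and 49.6% of its cells, and the macrophage gate 8436 and 3313 CPM. Pla2g2d, a secreted phospholipase, had 11.9 CPM in CIA and 3.52 CPM in control members, with 10.6 and 4.48 CPM in the endothelial gate and 513 and 253 CPM in the macrophage gate. Its call rested on 85 and 18 UMIs, and 5 other settings left it under the 100 UMIs needed. The levels and ratios of both genes in the members were thus near those in the endothelial gate, and the part of macrophage RNA in them was not tested. Of 14 macrophage and monocyte markers found, 0 were at 0 in both member sums and 3 were under 10 CPM in both, and together they had 1641 CPM in CIA and 950 CPM in control members and 1932 and 1195 CPM in the endothelial gate. Dennd4c, which regulates a small GTPase, had 12.5 and 5.08 CPM in members and 10.2 and 10.5 CPM in the endothelial gate, with 89 and 26 UMIs, and 4 other settings left it under 100 UMIs. Orm1, an acute-phase protein, had 27.1 and 6.44 CPM, with 58% of its CIA UMIs in 1 cell.

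Genes lower in CIA members included stress-responsive and immediate-early genes. Of 22 measured immediate-early genes, 5 were lower and 0 higher, against 0.677% and 0.0829% of all measured genes. The list's median log2 ratio was -0.80 against 0.05 over all genes. Atf3, a stress-induced transcription factor, had 38.4 CPM (33.9 to 43.2) in CIA and 234 CPM (221 to 248) in control members, seen in 24.8% and 62.8% of cells, 6.1-fold lower (5.34 to 6.98). Jun had 450 and 975 CPM, 2.17-fold lower, and Fosb 92.2 and 220 CPM, 2.39-fold lower, with Ier5 and Socs3 as the other 2. Fos, at 361 CPM in CIA and 658 CPM in control, was 1.82-fold lower and did not pass. Gdf15, a stress-induced cytokine, had 4.36 and 26.2 CPM, Plk2, a stress-responsive kinase, 5.2 and 21.3 CPM, and LOC108348108, which the files name only so, 184 and 764 CPM. In the thinned cells, Gdf15 was seen in 2.61% of CIA and 8.23% of control members, and in 2.11% and 7.41% of endothelial-gate cells. Plk2 was seen in 2.28% and 8.23% of members, and in 42.6% and 61.7% of endothelial-gate cells. The part of RNA from other cells in the member values of Gdf15 and Plk2 was not tested. Of 12 heat-shock chaperones, Hspb1 was lower, at 388 CPM in CIA and 827 CPM in control members. Nfkbia, the inhibitor that NF-kB induces, had 153 and 309 CPM, 2.01-fold lower (1.86 to 2.18), and fell short of 2-fold under 4 other settings.

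Some of these genes passed in other gates too. Atf3 was 3.28-fold lower in the lining gate, 5.83-fold lower in the endothelial gate and 3.35-fold lower in the macrophage gate. Jun was 2.81-fold, 3.85-fold and 2.35-fold lower there, and LOC108348108 6.51-fold, 7.54-fold and 4.18-fold lower. Hspb1, at 1.45-fold lower, and Nfkbia, at 1.77-fold lower, did not pass in the lining gate. Such genes are known to respond to tissue dissociation, and with 1 library per condition the handling of a library and the condition cannot be told apart in them.

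**Figure D5:**
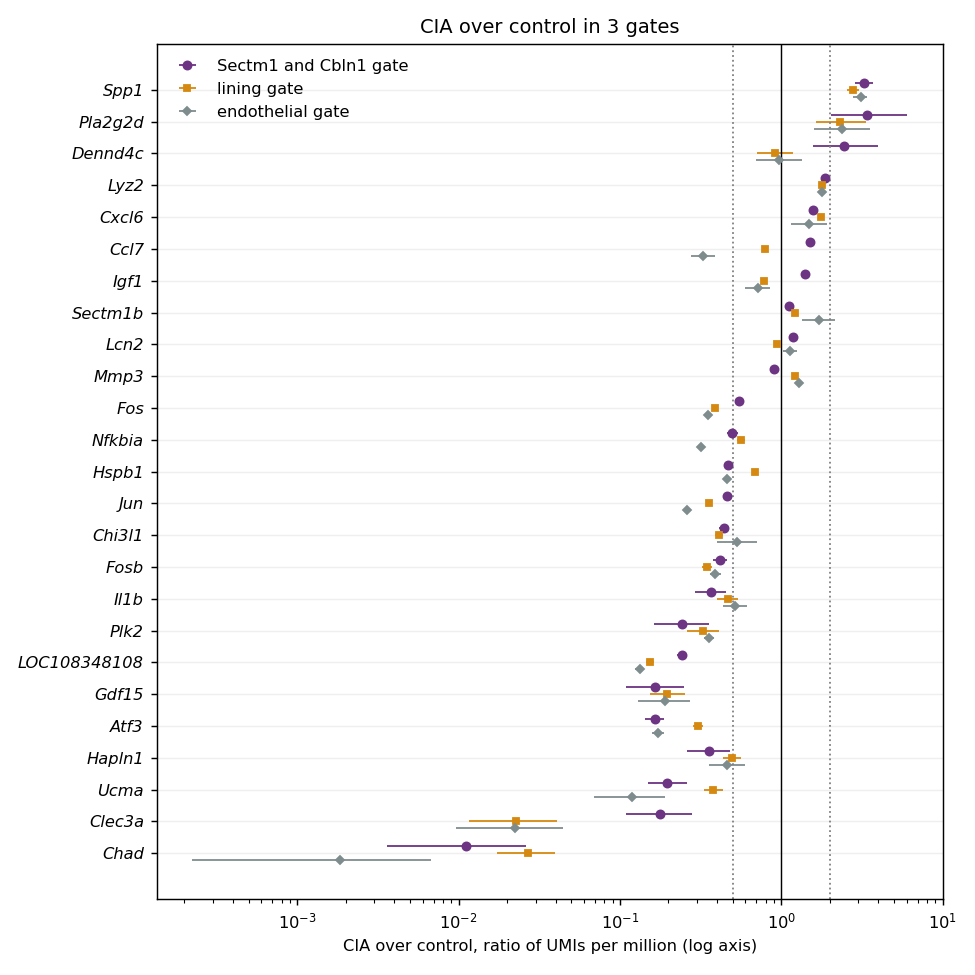
CIA over control ratio of summed CPM (log axis) for 25 genes in the Sectm1 and Cbln1 gate (circles), the lining gate (squares) and the endothelial gate (diamonds), with exact conditional 95% intervals, 1 library per condition. Dotted lines mark 2-fold. Spp1 is 3.26, 2.77 and 3.1 times higher in CIA in the 3 gates, and Atf3, Jun and the cartilage genes are lower in CIA in all 3.

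Cartilage genes were among those of lowest ratio. Of 6 measured chondrocyte markers, Chad, Col2a1, Ucma and Hapln1 were lower in CIA members, against 0.677% of all 7239 measured genes. Chad, chondroadherin, had 0.703 CPM in CIA and 62.9 CPM in control members, 89.5-fold lower, and the endothelial gate had 0.322 and 174 CPM of it. The member values rested on 5 CIA and 322 control UMIs, and 37.6% of the control UMIs lay in 1 cell. Chad was seen in 0.816% of CIA and 43% of control members. Col2a1, which the rule limits, had 5.48 and 139 CPM in members and 11.3 and 251 CPM in the endothelial gate. Clec3a, a cartilage lectin, had 3.37 and 18.9 CPM in members and 1.29 and 57.6 CPM in the endothelial gate, and 87.5% of its 24 CIA member UMIs lay in 1 cell. The control level of these 3 genes was higher in the endothelial gate than in the members, and the part of chondrocyte RNA in them was not tested. Chondrocyte markers summed to 51.7 CPM in CIA and 336 CPM in control members, and to 40.1 and 561 CPM in the endothelial gate. Ucma, a cartilage matrix protein, had 9.56 and 48.4 CPM in members, with 39.7% and 33.5% of its UMIs in 1 cell each. The osteoblast markers Ibsp and Alpl were also lower, with 93.3% of the CIA and 52.3% of the control Ibsp UMIs in 1 cell each.

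A few inflammatory and other genes were lower with few cells behind them. Il1b had 17.6 CPM in CIA and 48 CPM in control members, seen in 9.46% and 26.8% of cells, and 28.8 and 56 CPM in the endothelial gate, seen in 13.2% and 32.4%. Il33, an alarmin, had 8.43 and 25.6 CPM, and Ccl11, an eosinophil-attracting chemokine, 4.64 and 14.5 CPM, with 60.6% and 51.4% of the Ccl11 UMIs in 1 cell each. Mt3, a metallothionein, had 17 and 146 CPM, but 81.5% of its control UMIs lay in 1 cell. Wif1, a Wnt inhibitor, had 3.65 CPM in CIA and 20.1 CPM in control members and was 11.3-fold lower in the endothelial gate. Chi3l1, a chitinase-like protein, was seen in more cells, 56.4% of CIA and 65.5% of control members. It had 194 CPM in CIA and 439 CPM in control members, 2.26-fold lower (2.12 to 2.42). Of its UMIs, 14% in CIA and 22.7% in control members lay in 1 cell each. Chi3l1 was 2.43-fold lower in the lining gate and at 144 and 159 CPM in the matrix gate.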

How the data were processed

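The authors deposited raw UMI counts of each gene in each cell, 1 matrix per library, per the labels' Chromium 3' protocol. Per the submitters' processing notes the build was mRatBN7.2. The sources used here do not name the aligner, the counting tool, the cell calling or the strand setting. The libraries held 105752977 UMIs in 8622 CIA cells (4365 to 83311 per cell) and 76927821 UMIs in 5456 control cells (5095 to 81453). Barcodes were 24 bases long. Counts were summed over the cells of a gate and scaled to the summed UMIs of 18147 genes shared by both files. A gene was measured when both sums together reached 100 UMIs. Ratios carry exact conditional 95% intervals, levels exact Poisson and shares exact Clopper-Pearson ones. All cover counting error only. With 1 library per condition no test was run. Against other gates a gene counted when it passed the size rule the same way in both libraries. The lining gate had Prg4 of at least 5000 CPM, the matrix gate at least 3 UMIs of Mfap2, Egfl6 and Prss35 and not fewer of these than of the Sectm1 and Cbln1 genes, the Aqp3 and Fam180a gate at least 5 UMIs of Aqp3, Fam180a and Fam25a. The endothelial gate had at least 3 UMIs of Cdh5, Pecam1 and Egfl7 and the macrophage gate Lyz2 of at least 10000 CPM, both under the fibroblast limit of 20000 CPM. Members and the 41 gene lists (626 of 669 genes found) were chosen with earlier results of these data known. Named genes were the markers, the 12 of highest and of lowest ratio that passed and were seen in at least 10% of cells, and list members. Doublets were called with Scrublet (166 CIA and 62 control cells, of which 5 and 2 were members) and kept. The ratio step was tested on simulated data. Tools were Python 3.11.15, numpy 2.4.6, scipy 1.17.1, pandas 2.3.3, scanpy 1.11.5, matplotlib 3.10.9 and edgeR 4.0.16 (TMM factors) in R 4.3.3.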

Additional observations from a re-analysis of the deposited data

Results flagged for a closer look

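Orm1 was 4.21-fold higher in CIA than in control members and 3.84-fold lower in CIA than in control cells of the lining gate, opposite directions that were not tested against each other. It was seen in 3.92% of CIA and 3.66% of control members, and without the cell of most Orm1 UMIs in each library it no longer passed the size rule in the members.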

How the results depend on the processing

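No paired analysis was possible because there was 1 library per condition, and no replicate could be left out for the same reason. Shares of members (7.11% in CIA and 6.01% in control) were 5.36% and 4.86% with the marker limits on cells thinned to 4000 UMIs, 5.9% and 5.21% with at least 6 marker UMIs, and 1.97% (170 cells) in CIA with Lyz2 under 1000 CPM, where control was at 5.43%. With Prg4 under 2500 CPM, an alternative chosen after seeing the data, they were 3.76% (324 cells) and 3.08% (168 cells). The 6 genes higher in CIA were 3 with thinned limits, 21 with at least 1 UMI in each sum and 1 with at least 500 UMIs. The 49 lower were 31 with Prg4 under 2500 CPM, 133 with at least 1 UMI and 15 with at least 500 UMIs. The 147 genes lower than in other fibroblasts were 72 with Lyz2 under 1000 CPM and 80 with at least 500 UMIs. The cause of these shifts was not tested, save that the UMI limits change how many genes are measured. Of 33 named genes past the size rule between CIA and control, 33 stayed past it under each of 3 other scalings (TMM, median of ratios, total without the 50 most abundant genes), 25 with thinned limits, 30 with 6 marker UMIs, 17 with the Lyz2 limit, 17 with the Prg4 limit, 27 with every cell weighted equally and 29 without the cell of most UMIs (Mt3, Esam, Orm1 and Alpl lost), and 0 reversed. Calls ended under 5 of these settings for Pla2g2d and Alpl, 4 for Dennd4c, Nfkbia and Cilp, 3 for Clec3a, 2 for Wif1, Chi3l1, Mt3, Ccl11, Socs3, Orm1, Hapln1 and Esam, and 1 for Ucma, Ibsp, Gdf15, Plk2, Il33, Fosb and Hbb. Spp1, Atf3 and Jun were kept under all of these. Without doublet calls and barcodes over 20% mitochondrial UMIs, all 33 stayed. The scalings moved the median log2 ratio by at most 0.03. The depth per gate limits what can be seen of genes under 100 UMIs.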
